A study of Mus musculus with 30 samples.

Results

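MC38 tumours that lack B2m and MC38 tumours that lack Jak1 were each set against the same wild-type tumours, and the genes described here are those that lay on the same side of wild-type in both. A gene was counted as shared when its mean lay on the same side of wild-type in each of the 4 knockout groups and when the mean of the 20 knockout libraries differed from that of the 10 wild-type libraries. The sign condition is how the genes were chosen and carries no test of its own. Of 55471 genes in the table, 15505 passed the filter on low counts, and 4408 of these lay on the same side in all 4 knockout groups (2263 higher, 2145 lower). The difference passed the test for 2630 of the 4408, of which 1214 were higher and 1416 were lower in the knockouts.

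B2m encodes the light chain without which MHC class I molecules do not reach the cell surface, so cells that lack it cannot show peptides to CD8 T cells. Jak1 encodes a kinase that carries signals from the receptors for type I interferons, interferon gamma and many cytokines to STAT transcription factors, and MHC class I genes are among the targets of that signal. Loss of either gene is a known route by which tumours escape checkpoint blockade, the treatment that blocks the inhibitory receptor PD-1 on T cells.

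MC38 is a mouse colon carcinoma line, and here 1000000 cells were grown under the skin of female C57BL/6 mice aged 6 to 8 weeks. The 6 groups of 5 libraries were B2mKO tumours given the anti-PD-1 antibody aPD1, B2mKO tumours given the control antibody IgG1, Jak1KO tumours given aPD1, Jak1KO tumours given IgG1, WT tumours given aPD1 and WT tumours given IgG1. Each antibody was injected into a vein at 100 µg on days 7, 10 and 13, and RNA was taken on day 14 from about 50 mg of tumour. The series is about protease genes in response and resistance to this therapy. The mutations are in the injected cells, and the mouse's own cells in the tumour carry both genes. Whether each knockout line is 1 clone is not given in the sources used here, so a mutation and any other difference between the lines cannot be told apart. Whether every library is from its own mouse is not stated, and the p-values therefore reflect the variation among the libraries, which may be technical. All 4 knockout groups were set against the same WT libraries, so their differences from WT are not independent.

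Total counts were between 17629795 and 25944701 per library. A library's mean correlation with the others of its group, over log2 CPM (counts per 1000000 of the scaled library total), had a median of 0.982. The lowest values were 0.953 in B2mKO aPD1 replicate 2 and 0.954 in WT IgG1 replicate 3, and the next was 0.971. Without these 2 libraries 3687 genes were shared, against 2630 with them. The epithelial label of the line had little trace in the counts: 22 listed epithelial genes summed to 7.75 to 34.9 CPM in B2mKO libraries and 7.87 to 23.8 CPM in Jak1KO libraries, against 9.71 to 41.2 CPM in WT libraries, and the intestinal genes Cdx2 and Tff3 had 0 counts in all 30.

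The targeted genes were read first. B2m (chromosome 2, 122147686 to 122153083, GRCm38 as in all gene positions given here) was at 501, 664 and 963 CPM in B2mKO tumours and at 933, 1201 and 1708 CPM in Jak1KO tumours, against 1965, 3930 and 5459 CPM in WT tumours, the lowest, median and highest of 10 libraries each. Neither knockout overlapped WT, so B2m is itself a shared gene. Its log2 difference from WT was -2.47 ± 0.14 (SE) in B2mKO tumours and -1.62 ± 0.13 in Jak1KO tumours (edgeR, adjusted p = 1.2e-13 and 1.94e-10). Jak1 was at 199, 298 and 323 CPM in B2mKO tumours and at 64.4, 72.6 and 81.9 CPM in Jak1KO tumours, against 182, 239 and 255 CPM in WT tumours. It fell by 1.71 ± 0.07 in Jak1KO tumours and rose 0.30 ± 0.07 in B2mKO tumours (edgeR, adjusted p = 2.17e-16 and 0.00167), so Jak1 is not shared.

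The shared shift was broad and mostly small. Rises and falls of genes are given below as the log2 difference of the mean of all knockouts from WT, ± SE. In the test of all knockouts against WT (edgeR's quasi-likelihood F-test, Benjamini-Hochberg adjusted p under 0.05), 3845 genes passed, which is 24.8% of genes tested. The shared genes were 17.0% of genes tested, 7.83% higher and 9.13% lower, and the counts of list members below are read against these shares. The other 1215 genes that passed did not lie on one side in all 4 groups. The median log2 difference was 0.40 among shared genes that rose and -0.48 among those that fell, against -0.005 over all genes tested. Among those that rose, 830 moved by less than 1.5-fold, 132 by more than 2-fold and 29 by more than 4-fold. Among those that fell, 835 moved by less than 1.5-fold, 307 by more than 2-fold and 96 by more than 4-fold. For 112 genes, 0.722% of genes tested, the 20 knockout and the 10 WT libraries did not overlap, 33 of them (0.213%) higher and 79 (0.510%) lower in the knockouts.

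Among the largest shared rises were genes for proteins outside the cell, led by Hpse2, which encodes heparanase 2, a heparan sulphate binding protein that inhibits the enzyme heparanase. Hpse2 (chromosome 19, 42786539 to 43388355) was at 3.73, 5.86 and 8.07 CPM in B2mKO tumours and at 9.85, 13.4 and 16.4 CPM in Jak1KO tumours, against 0, 0 and 0.0844 CPM in WT tumours. The WT groups held 2 counts (aPD1) and 3 counts (IgG1) in all, so the ratio to WT was 357 (95% counting interval 98.5 to 2960) in B2mKO aPD1 and 745 (206 to 6150) in Jak1KO aPD1 tumours. Under IgG1 the ratio was 174 (59.2 to 845) in B2mKO and 455 (155 to 2210) in Jak1KO tumours. These intervals cover counting error only. Mfap4, a microfibril protein that binds elastin and collagen (chromosome 11, 61485431 to 61488900), was at 87.2, 201 and 462 CPM in B2mKO tumours and at 94.0, 145 and 232 CPM in Jak1KO tumours, against 4.63, 13.7 and 31.9 CPM in WT tumours. Its log2 difference was 3.67 ± 0.25 (edgeR, adjusted p = 5.05e-12), with no overlap between knockout and WT libraries. Eln, which encodes tropoelastin (chromosome 5, 134702593 to 134747323), was at 11.4, 19.3 and 38.5 CPM in B2mKO tumours and at 36.6, 72.4 and 248 CPM in Jak1KO tumours, against 1.17, 4.48 and 33.2 CPM in WT tumours. It rose 2.60 ± 0.40 (edgeR, adjusted p = 1.36e-05), and the highest WT library lay within the B2mKO range.

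**Figure D1:**
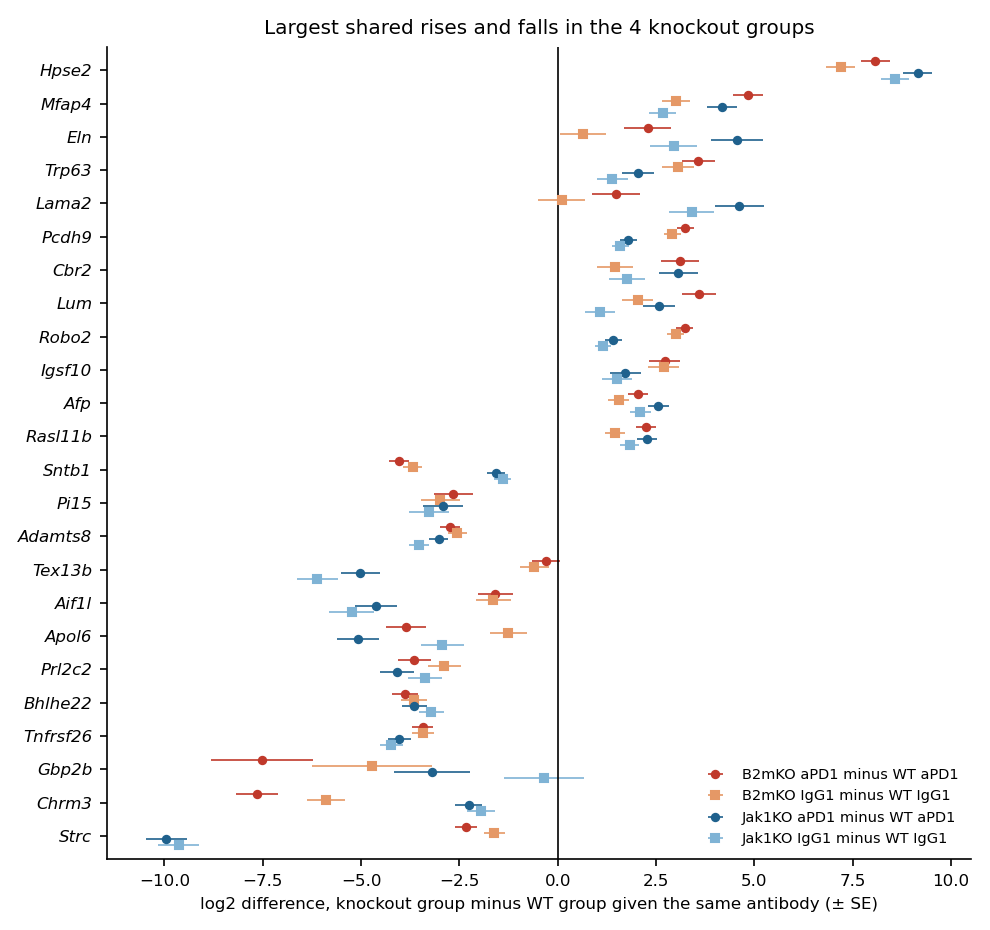
The log2 difference of each knockout group from the WT group given the same antibody (x axis, point ± SE, n = 5 libraries a group) for the 12 largest shared rises and the 12 largest shared falls. By the way the genes were chosen, all rises lie above 0 and all falls below 0 in all 4 groups. Strc and Tex13b lie farther from 0 in Jak1KO and Chrm3 farther in B2mKO tumours. The Hpse2 points rest on WT groups with at most 3 counts, and the Jak1KO points of Strc on Jak1KO groups with at most 3 counts.

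Lum, which encodes the collagen-binding proteoglycan lumican, was at 58.8, 138 and 286 CPM in B2mKO tumours and at 38.2, 62.7 and 118 CPM in Jak1KO tumours, against 10.5, 14.9 and 53.5 CPM in WT tumours. It rose 2.32 ± 0.26 (edgeR, adjusted p = 1.21e-07), and the highest WT library lay within the Jak1KO range. Lama2, a laminin chain of basement membranes, was at 0.294, 1.16 and 2.88 CPM in B2mKO tumours and at 4.65, 11.3 and 30.8 CPM in Jak1KO tumours, against 0.167, 0.814 and 3.04 CPM in WT tumours. It rose 2.40 ± 0.39 on average, but its difference from WT was 0.10 in B2mKO IgG1 and 4.62 in Jak1KO aPD1 tumours, and B2mKO minus Jak1KO was -3.22 ± 0.40 (edgeR, adjusted p = 1.92e-07). Igsf10, a secreted protein of the immunoglobulin superfamily, rose 2.16 ± 0.26 and lay above the median of the matched WT group in 20 of 20 knockout libraries.

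Other large rises were in genes of the cell surface and the cytoplasm. Robo2, a receptor for Slit guidance proteins (chromosome 16, 73891839 to 74411825), was at 99, 186 and 247 CPM in B2mKO tumours and at 39.6, 48.6 and 55.1 CPM in Jak1KO tumours, against 13.1, 19.3 and 30.8 CPM in WT tumours. The genotypes formed 3 separate ranges, and the rise over both knockouts was 2.19 ± 0.14 (edgeR, adjusted p = 2.29e-12). Pcdh9, a protocadherin of cell adhesion (chromosome 14, 93013410 to 93890679), was at 17.3, 35.0 and 47.8 CPM in B2mKO tumours and at 11.7, 13.7 and 15.2 CPM in Jak1KO tumours, against 2.98, 3.79 and 6.29 CPM in WT tumours. It rose 2.38 ± 0.14, and its range was again highest in B2mKO, lower in Jak1KO and lowest in WT tumours without overlap. Capn6, a calpain that lacks the catalytic cysteine of its family and binds microtubules (chromosome X, 143802231 to 143827414), was at 36.8, 52.2 and 60.9 CPM in B2mKO tumours and at 27.1, 33.0 and 36.7 CPM in Jak1KO tumours, against 9.91, 12.7 and 16.8 CPM in WT tumours. It rose 1.65 ± 0.09 (edgeR, adjusted p = 9.62e-14), without overlap of knockout and WT libraries.

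Trp63, a p53-family transcription factor of basal epithelium (chromosome 16, 25683763 to 25892102), was at 8.44, 22.1 and 40.6 CPM in B2mKO tumours and at 4.50, 6.58 and 13.8 CPM in Jak1KO tumours, against 0.882, 2.16 and 4.18 CPM in WT tumours. It rose 2.52 ± 0.27 without overlap. Krt14, a keratin of the same basal cells, moved the other way: it was at 0, 0.0513 and 0.328 CPM in B2mKO tumours and at 0.148, 0.380 and 0.833 CPM in Jak1KO tumours, against 0.295, 1.34 and 3.36 CPM in WT tumours, and fell by 2.78 ± 0.33 (edgeR, adjusted p = 2.26e-07). The 12 listed skin keratinocyte genes, both among them, summed to 16.0 to 49.9 CPM in B2mKO libraries and 11.4 to 19.8 CPM in Jak1KO libraries, against 11.0 to 29.6 CPM in WT libraries, and their part in these values was not tested. Afp, the fetal serum protein alpha-fetoprotein, rose 2.06 ± 0.17, and Rasl11b, a Ras-like GTPase, rose 1.95 ± 0.17, neither with overlap. Cbr2, a carbonyl reductase, rose 2.35 ± 0.31, and Fam198b rose 1.39 ± 0.09, the second without overlap.

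**Figure D2:**
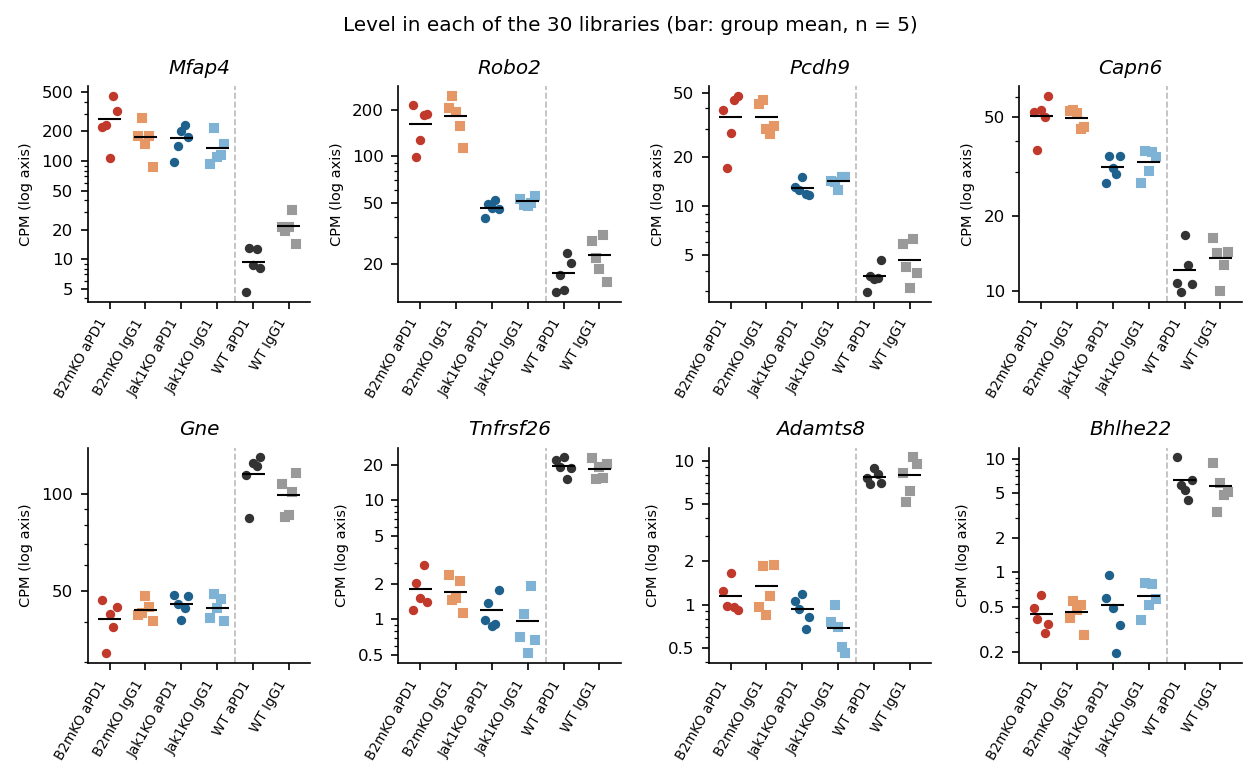
CPM (log axis) in each of the 30 libraries for 4 shared genes that rose (Mfap4, Robo2, Pcdh9, Capn6) and 4 that fell (Gne, Tnfrsf26, Adamts8, Bhlhe22); a bar is the mean of a group of 5, and the dashed line divides knockout from WT groups. In none of the 8 genes do the 20 knockout libraries overlap the 10 WT libraries, and Robo2 and Pcdh9 are higher in B2mKO than in Jak1KO libraries.

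Tnfrsf26, a member of the TNF receptor superfamily (chromosome 7, 143607659 to 143628722), was at 1.13, 1.51 and 2.87 CPM in B2mKO tumours and at 0.517, 0.952 and 1.89 CPM in Jak1KO tumours, against 15.0, 18.9 and 23.0 CPM in WT tumours. It fell by 3.78 ± 0.15 (edgeR, adjusted p = 9.89e-17), and B2mKO minus Jak1KO was 0.69 ± 0.20 (edgeR, adjusted p = 0.00688). Bhlhe22, a helix-loop-helix factor known from neurons (chromosome 3, 18054174 to 18057517), was at 0.283, 0.435 and 0.634 CPM in B2mKO tumours and at 0.194, 0.551 and 0.940 CPM in Jak1KO tumours, against 3.43, 5.58 and 10.3 CPM in WT tumours. It fell by 3.6 ± 0.18, and B2mKO minus Jak1KO was -0.35 ± 0.25 (edgeR, adjusted p = 0.276). Gne, the enzyme that makes the first committed intermediate of sialic acid (chromosome 4, 44034075 to 44084177), was at 32, 42.6 and 48.1 CPM in B2mKO tumours and at 40.2, 44.7 and 49.0 CPM in Jak1KO tumours, against 84.2, 111 and 129.8 CPM in WT tumours. It fell by 1.30 ± 0.06 (edgeR, adjusted p = 1.11e-14), and B2mKO minus Jak1KO was -0.09 ± 0.08 (edgeR, adjusted p = 0.387). For these 3 genes no knockout library reached the lowest WT library.

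Adamts8, a secreted metalloprotease (chromosome 9, 30942562 to 30963838), was at 0.844, 1.07 and 1.89 CPM in B2mKO tumours and at 0.460, 0.796 and 1.18 CPM in Jak1KO tumours, against 5.15, 7.88 and 10.6 CPM in WT tumours. It fell by 2.96 ± 0.14 (edgeR, adjusted p = 2.56e-15) without overlap. Pi15, a secreted peptidase inhibitor, fell by 2.96 ± 0.28, with differences between -3.27 and -2.66 in the 4 groups and no overlap. Apol6, of the apolipoprotein L family, fell by 3.28 ± 0.28. Prl2c2, a proliferin of the prolactin family, fell by 3.5 ± 0.23, and its value is uncertain because reads that match near-identical copies were not counted.

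Other falls differed in size between the knockouts. Strc, which encodes stereocilin of inner ear hair cells (chromosome 2, 121363728 to 121387168), was at 1.37, 3.74 and 5.05 CPM in B2mKO tumours and at 0, 0 and 0.0495 CPM in Jak1KO tumours, against 6.72, 13.2 and 20.1 CPM in WT tumours. The Jak1KO groups held 1 count each, and the ratio of WT to Jak1KO was 1640 (95% counting interval 293 to 64700) under aPD1 and 1270 (227 to 50200) under IgG1. Chrm3, the muscarinic receptor M3, was at 0, 0.0941 and 0.229 CPM in B2mKO tumours and at 0.836, 1.89 and 4.20 CPM in Jak1KO tumours, against 3.6, 9.11 and 17.6 CPM in WT tumours. Sntb1, a syntrophin of the dystrophin complex, was at 1.46, 2.29 and 3.86 CPM in B2mKO tumours and at 8.07, 12.7 and 17.0 CPM in Jak1KO tumours, against 26.8, 33.1 and 53.5 CPM in WT tumours. Strc was lower in Jak1KO than in B2mKO tumours, and Chrm3 and Sntb1 were lower in B2mKO than in Jak1KO tumours (edgeR, adjusted p = 4.73e-15, 5.55e-11 and 6.23e-12 for B2mKO minus Jak1KO). Aif1l, an actin-binding protein, was at 2.40, 3.34 and 5.57 CPM in B2mKO tumours and at 0, 0.269 and 0.964 CPM in Jak1KO tumours, against 5.81, 10.6 and 18.2 CPM in WT tumours, which are 3 ranges without overlap.

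Of the 2630 shared genes, 1061 (40.3%) differed in level between B2mKO and Jak1KO tumours, against 42.8% of all genes tested (6643 genes). That comparison uses no WT library, but the shared genes were chosen on the same knockout means. The 40.3% is therefore shaped by the choice, and no conclusion is drawn from its distance to 42.8%. The shift from WT was larger in B2mKO tumours for 539 of the 1061 and larger in Jak1KO tumours for 522. The named genes with the smallest p-values were Fgf7, St3gal3, Eid2, H2-Q6, Tex13b and Strc. Fgf7, a fibroblast growth factor that acts on epithelium, was at 43.2, 60.7 and 66.0 CPM in B2mKO tumours and at 112, 135 and 169 CPM in Jak1KO tumours, against 39.6, 51.1 and 60.4 CPM in WT tumours. The Jak1KO range lay above the other genotypes, and the B2mKO and WT ranges overlapped. St3gal3, a sialyltransferase, was at 32.8, 37.4 and 42.9 CPM in B2mKO tumours and at 20.0, 21.7 and 22.6 CPM in Jak1KO tumours, against 37.5, 44.4 and 49.8 CPM in WT tumours. Eid2, a nuclear inhibitor of differentiation, was at 0.687, 0.846 and 1.42 CPM in B2mKO tumours and at 3.05, 3.87 and 5.03 CPM in Jak1KO tumours, against 3.92, 5.54 and 7.59 CPM in WT tumours. Of these, St3gal3 was lower in Jak1KO and Eid2 in B2mKO tumours, B2mKO minus Jak1KO being 0.82 ± 0.06 and -2.08 ± 0.14 (edgeR, adjusted p = 2.73e-12 and 3.09e-12). Tex13b, a gene known from testis, was at 3.5, 6.09 and 11.7 CPM in B2mKO tumours and at 0, 0.171 and 0.514 CPM in Jak1KO tumours, against 3.71, 9.07 and 16.6 CPM in WT tumours.

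A gene could be shared without passing the test in each knockout or under each antibody. In the fit of all 6 groups, 1889 of the 2630 shared genes passed in B2mKO against WT, 1959 in Jak1KO against WT and 1258 in both. Over all genes tested, 29.6% passed in B2mKO and 32.4% in Jak1KO tumours. With both knockouts as 1 mean, 1490 shared genes passed under aPD1, 1416 under IgG1 and 866 under both. Over all genes tested, 16.6% passed under aPD1 and 14.2% under IgG1. Shared genes were chosen on the same values, so they pass more often by the choice itself. Passing both was not counted over all genes. Of the genes named in the text, Lama2, Cd79b, Fgf7, Mertk, Ccne1, Tnfrsf10b, Cd14, Raet1d, H2-Q6 and Tex13b were among those that did not pass in B2mKO tumours. Xcl1, Col11a1, Hc, Mmp9, Col8a1, Bmp1, Ccna2, Bhlhb9, Rrm2, Cdc6, Sqle, Ero1l, H2-Eb1 and H2-Ab1 were among those that did not pass in Jak1KO tumours. Under IgG1, Cd80, Cd86, Clec9a, Ctsc, Gbp2b, H2-Ab1, H2-Eb1, H2-DMb1, Il7r, Itgb2, Mmp8, Mmp13, Nfkbia, Nod2, Ptgs2, Serping1 and Timp3 were among those that did not pass. Under aPD1, Ncr1, Xcl1, Cd4, Ctsw, Ccna2, Rrm2, Sqle, Insig1, Ndrg1, Ero1l, Nqo1 and Cdkn1c were among those that did not pass.

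The sign condition left out 1215 genes that passed the test on the mean. Of these, Tmprss11g, a membrane-bound serine protease (chromosome 5, 86485876 to 86518600), had the smallest p-value among genes with a name. It had 0 counts in all 10 B2mKO libraries and 4.35, 5.38 and 6.51 CPM in Jak1KO tumours, against 3.72, 5.07 and 7.28 CPM in WT tumours. Against a floor of 3 counts a group, B2mKO tumours were at least 165-fold lower under aPD1 and at least 196-fold lower under IgG1. Just inside the condition was Bhlhb9, whose differences were -0.45 and -0.73 in B2mKO aPD1 and IgG1 tumours and -0.0001 and -0.15 in Jak1KO aPD1 and IgG1 tumours.

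Gene lists were then read for shared genes. In each list the up to 3 shared genes with the smallest p-values are named by rule, and any further gene of a list was chosen after its values were seen. Lists of the tumour matrix held more rises than falls. Of 19 fibroblast genes, 6 rose and 2 fell, of 20 collagen genes 6 rose and 1 fell, and of 29 other matrix genes 8 rose and 4 fell. The median log2 differences were 0.38, 0.48 and 0.35 in these lists, against -0.005 over all genes. By group, in the order B2mKO aPD1, B2mKO IgG1, Jak1KO aPD1 and Jak1KO IgG1, the fibroblast medians were 1.02, 0.88, 0.29 and -0.26. Collagen medians were 0.66, 0.75, 0.2 and 0.02 in that order, and other matrix medians 0.64, 0.62, -0.04 and 0.15. The list medians were thus higher in B2mKO than in Jak1KO tumours. In B2mKO tumours 13 fibroblast, 11 collagen and 17 other matrix genes were higher than in WT, and 2, 0 and 2 were lower. In Jak1KO tumours 6, 1 and 8 were higher and 3, 3 and 7 lower. Over all genes tested, 14.0% were higher and 15.6% lower in B2mKO tumours, and 14.8% and 17.6% in Jak1KO tumours. Col4a5, a basement membrane collagen, was at 15.0, 21.0 and 24.9 CPM in B2mKO tumours and at 16.6, 20.6 and 24.7 CPM in Jak1KO tumours, against 6.89, 9.61 and 11.6 CPM in WT tumours. It rose 1.10 ± 0.09 without overlap, and B2mKO minus Jak1KO was -0.01 ± 0.10. The fibril collagen Col11a1 rose 1.03 ± 0.22 over all knockouts, with differences of 1.83 in B2mKO and 0.24 in Jak1KO tumours (edgeR, adjusted p = 2.13e-06 and 0.488). Col8a1, a short-chain collagen of vessels, rose 0.60 ± 0.07 over all knockouts, with differences of 0.99 in B2mKO and 0.20 in Jak1KO tumours (edgeR, adjusted p = 1.59e-10 and 0.0523). Ltbp1, which holds latent TGF-beta in the matrix, was at 143 to 550.4 CPM in knockout libraries, against 72.1 to 149 CPM in WT libraries, and rose 1.10 ± 0.12. The proteoglycan Bgn rose 1.10 ± 0.17 and the elastic fibre protein Emilin1 0.91 ± 0.13. Of 20 genes of the TGF-beta list 2 rose, near the share over all genes tested (7.83%). They were the ligand Tgfb3 (1.05 ± 0.14) and the procollagen protease Bmp1 (0.47 ± 0.06). The Bmp1 difference was 0.86 in B2mKO and 0.09 in Jak1KO tumours (edgeR, adjusted p = 6.32e-10 and 0.37).

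The falls in these lists were of other genes. Fbln2, a fibulin of basement membranes on the fibroblast list, was at 13.0, 35.1 and 64.9 CPM in B2mKO tumours and at 5.87, 10.0 and 24.7 CPM in Jak1KO tumours, against 36.7, 82.2 and 159 CPM in WT tumours, and fell by 2.2 ± 0.25 (edgeR, adjusted p = 1.37e-07). The other fibroblast gene that fell was Pdpn, a surface mucin (by 0.61), and the collagen that fell was Col12a1 (by 0.72). The collagen falls numbered 0 to 2 with 1 library left out. Among the other matrix genes that fell were the lysyl oxidases Lox and Loxl2, which cross-link collagen, and the laminin chain Lama4, by 0.69, 0.59 and 0.43. The fibroblast list summed to 2681 to 6130 CPM in B2mKO libraries and 1635 to 2215 CPM in Jak1KO libraries, against 1451 to 3389 CPM in WT libraries. Its part in the matrix values was not tested, and in bulk tumour fewer cells of a type and less RNA per cell cannot be told apart. Without WT IgG1 replicate 3, 3 collagen genes rose, against 6 with it, and 1 TGF-beta gene, against 2 with it. The TGF-beta count was also 1 without WT IgG1 replicate 2, WT IgG1 replicate 5, Jak1KO aPD1 replicate 5, Jak1KO IgG1 replicate 3 or Jak1KO IgG1 replicate 4.

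**Figure D3:**
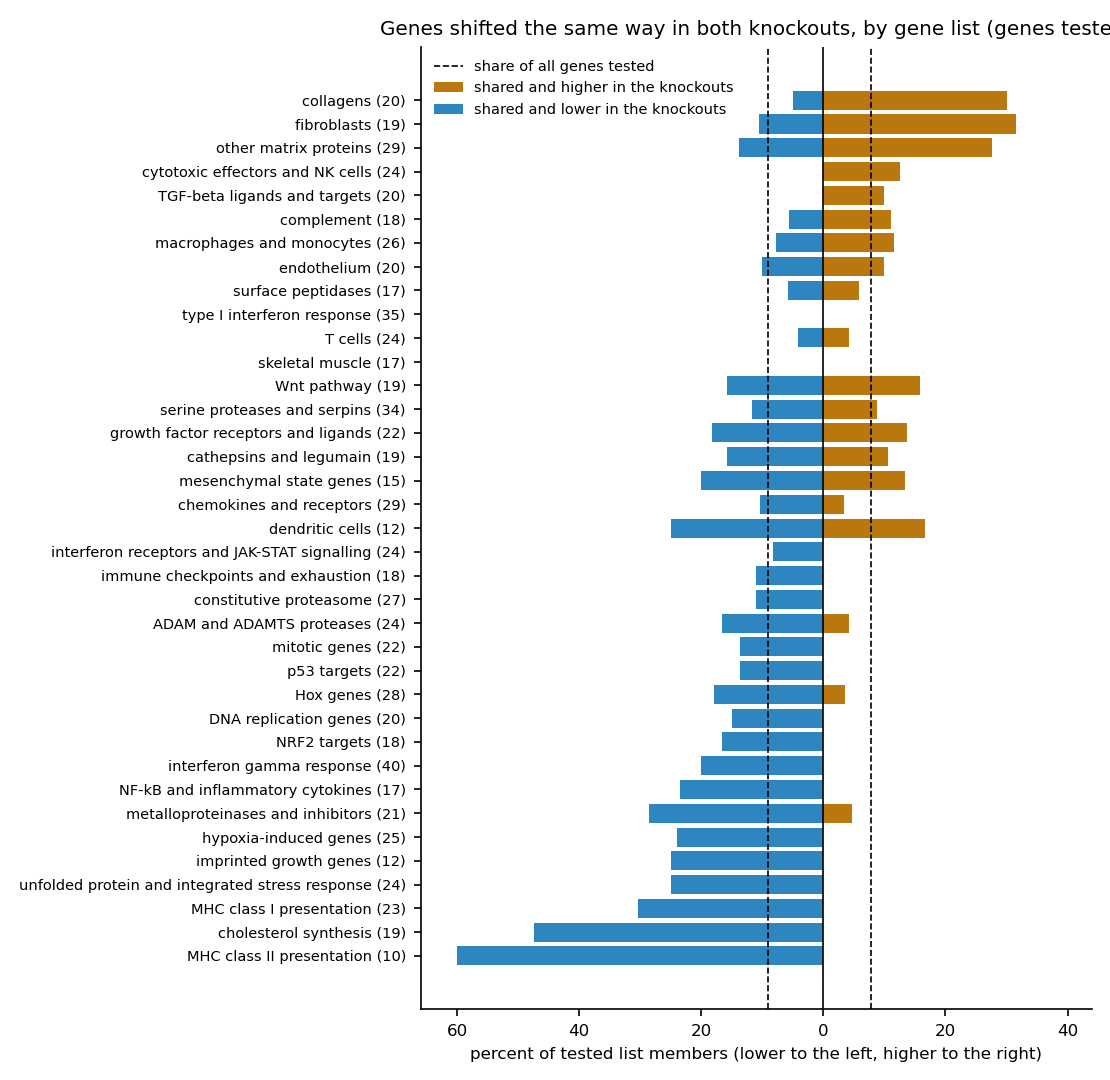
The share of tested members of each gene list with at least 10 tested members (number in brackets) that were shared and lower (left, blue) or shared and higher (right, brown) in the knockouts; dashed lines mark 9.13% lower and 7.83% higher over all genes tested. Fibroblast, collagen and other matrix lists have the longest bars to the right, and the MHC class II, cholesterol synthesis and MHC class I lists the longest to the left.

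Both interferon lists were mostly outside the shared shift, although the mean of all knockouts differed from WT for most of their genes. Of 40 interferon gamma response genes, 8 were shared, all lower, and 30 more passed the test on the mean without lying on one side. Their median difference was -1.23 in B2mKO aPD1, 0.15 in B2mKO IgG1, -2.29 in Jak1KO aPD1 and -1.21 in Jak1KO IgG1 tumours. Of 35 type I interferon response genes, 0 lay on one side in all 4 groups, while 20 passed the test on the mean. In B2mKO tumours 25 of these 35 were higher and 0 lower than in WT (14.0% and 15.6% of genes tested), and in Jak1KO tumours 0 were higher and 34 lower (14.8% and 17.6% of genes tested). The count of 8 shared interferon gamma genes was 14 without WT IgG1 replicate 5.

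The shared interferon gamma genes named by rule were Upp1, Tgtp1, Tgtp2, Socs3 and Gbp2b. Upp1, uridine phosphorylase, was at 13.5, 16.6 and 39.9 CPM in B2mKO tumours and at 11.5, 18.3 and 23.9 CPM in Jak1KO tumours, against 30.0, 57.9 and 108 CPM in WT tumours. It fell by 1.73 ± 0.16 (edgeR, adjusted p = 1.83e-09), and its difference from WT was -1.72 in B2mKO and -1.75 in Jak1KO tumours. Socs3, a feedback inhibitor of cytokine receptors, fell by 0.96 ± 0.11 and lay below the median of the matched WT group in 20 of 20 knockout libraries. Tgtp1 and Tgtp2, a pair of interferon-induced GTPases, fell by 2.54 ± 0.25 and 1.63 ± 0.17. In B2mKO IgG1 tumours Tgtp1 was at 7.62 to 12.8 CPM, within the WT IgG1 range of 5.54 to 19.7 CPM. Tgtp2 was at 48.6 to 64.9 CPM in those tumours, within the WT IgG1 range of 33.05 to 86.1 CPM. Gbp2b, a guanylate-binding GTPase, was at 0.0432, 0.150 and 0.927 CPM in B2mKO tumours and at 0.139, 1.56 and 35.6 CPM in Jak1KO tumours, against 0.295, 9.03 and 126 CPM in WT tumours, with wide overlap. The values of Tgtp1, Tgtp2 and Gbp2b are uncertain because of near-identical copies. The other 3 were Ido1, an enzyme that degrades tryptophan (lower by 3.22), and the transcription factors Batf2 and Irf1 (lower by 1.24 and 0.67).

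Promoters are shown for the 4 genes named by rule in which a motif of the interferon pathway was found, with the match in capitals. The interferon-stimulated response element was searched as GAAA, 2 bases of any kind and GAAA again, and the gamma-activated site, bound by STAT dimers, as TTCNNNGAA. Both were searched on both strands, and the matches shown do not overlap each other. Each sequence runs 5′ to 3′ along the gene's strand over 300 bases, from 250 before the start site to 50 from it onward (RefSeq, GRCm38.p6): Tgtp1 at chr11:48992197-48992496 (minus strand), Tgtp2 at chr11:49064163-49064462 (minus strand), Socs3 at chr11:117969317-117969616 (minus strand) and Gbp2b at chr3:142594597-142594896 (plus strand).
Tgtp1: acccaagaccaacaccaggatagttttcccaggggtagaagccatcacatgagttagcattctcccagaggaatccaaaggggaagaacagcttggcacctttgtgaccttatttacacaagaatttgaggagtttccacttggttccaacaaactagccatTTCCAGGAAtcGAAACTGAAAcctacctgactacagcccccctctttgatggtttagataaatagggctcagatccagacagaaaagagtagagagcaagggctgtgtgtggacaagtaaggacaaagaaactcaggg
Tgtp2: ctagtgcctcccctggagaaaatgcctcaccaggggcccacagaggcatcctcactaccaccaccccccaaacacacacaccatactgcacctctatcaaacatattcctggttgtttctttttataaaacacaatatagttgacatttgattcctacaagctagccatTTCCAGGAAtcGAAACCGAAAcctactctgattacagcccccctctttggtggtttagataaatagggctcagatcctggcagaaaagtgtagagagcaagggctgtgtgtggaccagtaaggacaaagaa
Socs3: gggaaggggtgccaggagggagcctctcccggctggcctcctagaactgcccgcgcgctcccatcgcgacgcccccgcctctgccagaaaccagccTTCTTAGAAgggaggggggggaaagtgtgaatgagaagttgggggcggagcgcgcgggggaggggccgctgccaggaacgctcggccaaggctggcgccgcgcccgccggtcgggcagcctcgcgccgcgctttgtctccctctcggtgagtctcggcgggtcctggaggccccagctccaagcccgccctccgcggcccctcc
Gbp2b: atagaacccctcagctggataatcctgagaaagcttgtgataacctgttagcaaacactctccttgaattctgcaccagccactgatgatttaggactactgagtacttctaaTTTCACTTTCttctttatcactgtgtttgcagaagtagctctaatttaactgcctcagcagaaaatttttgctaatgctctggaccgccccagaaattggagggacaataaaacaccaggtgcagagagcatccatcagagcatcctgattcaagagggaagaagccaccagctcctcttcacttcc

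In Tgtp1 the gamma-activated site begins 88 bases and the response element 77 bases upstream of the start site, and in Tgtp2 they begin 81 and 70 bases upstream, in the same order. Socs3 holds the gamma-activated site alone, 154 bases upstream, and Gbp2b the response element alone, 137 bases upstream. Over all shared genes with a promoter in the table, the response element was found in 4.17% of 1007 that fell and 2.69% of 891 that rose, against 3.98% of 11025 genes tested. The gamma-activated site was found in 8.34% of those that fell and 6.29% of those that rose, against 8.25% of genes tested. Of the 24 interferon gamma list genes with a promoter in the table, shared or not, 12 held the response element and 11 the gamma-activated site. A match of letters describes the promoter and does not show that a factor binds there.

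Of 23 MHC class I presentation genes, 7 were shared and lower, B2m among them, and 0 lay above WT in all 4 groups. H2-Q6 and H2-Q7, non-classical class I genes whose near-identical copies make their values uncertain, fell by 1.61 ± 0.12 and 1.57 ± 0.12. H2-Q6 was at 255, 369 and 479.8 CPM in B2mKO tumours and at 40.4, 65.1 and 93.7 CPM in Jak1KO tumours, against 238, 488 and 648 CPM in WT tumours. The B2mKO range overlapped that of WT, and the Jak1KO range lay below both. The other 4 were the immunoproteasome subunits Psmb9 and Psmb8 and the class I genes H2-T23 and H2-M3, lower by 1.17, 0.57, 0.78 and 0.49. The list's median difference was -0.15 in B2mKO aPD1, 0.09 in B2mKO IgG1, -1.17 in Jak1KO aPD1 and -0.82 in Jak1KO IgG1 tumours. Of 10 MHC class II genes, 6 were shared and lower. The class II median was -2.53 in B2mKO aPD1, -1.02 in B2mKO IgG1, -1.95 in Jak1KO aPD1 and -0.04 in Jak1KO IgG1 tumours. H2-Ab1, which encodes a class II beta chain, was at 17.2, 54.4 and 269 CPM in B2mKO tumours and at 23.7, 113 and 434 CPM in Jak1KO tumours, against 57.8, 335 and 1428 CPM in WT tumours, with wide overlap. It fell by 2.02 ± 0.44, H2-Eb1 by 1.98 ± 0.45 and H2-DMb1, part of the peptide-loading chaperone, by 1.14 ± 0.23 (edgeR, adjusted p = 0.00103, 0.00168 and 0.000486). The H2-Ab1 difference was -2.88 under aPD1 and -1.17 under IgG1 (edgeR, adjusted p = 0.00161 and 0.21). Single libraries moved these counts: without WT IgG1 replicate 3, 2 MHC class I and 0 MHC class II genes were shared. The class II count was 3 without WT aPD1 replicate 1, WT aPD1 replicate 2 or WT IgG1 replicate 4 and 2 without Jak1KO IgG1 replicate 2.

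**Figure D4:**
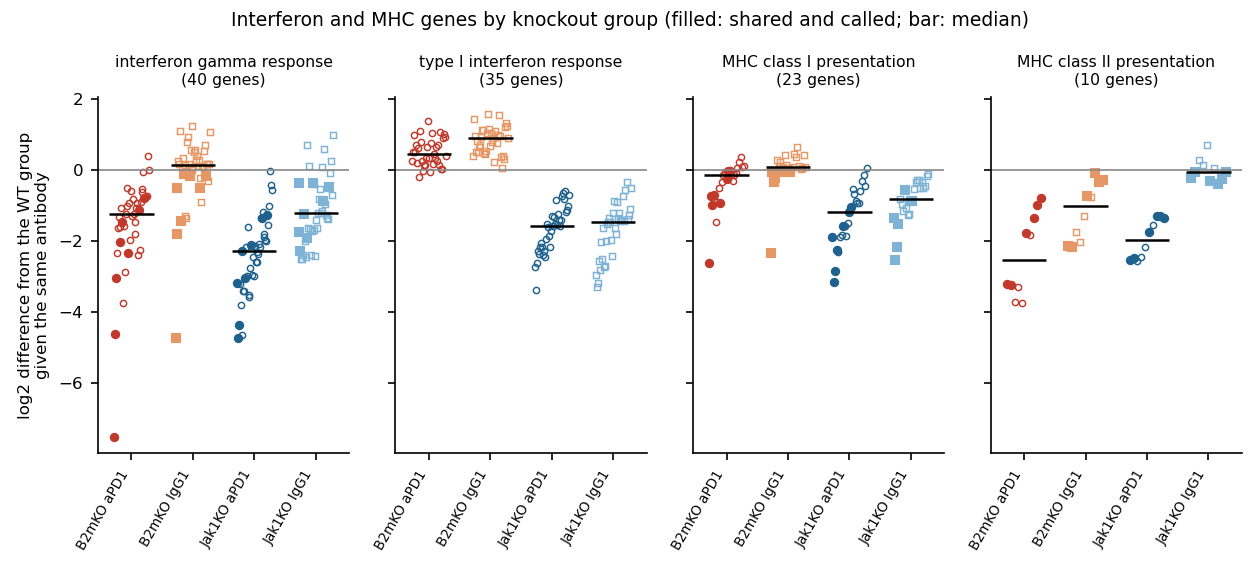
The log2 difference of each knockout group from the WT group given the same antibody (y axis) for the tested genes of 4 lists; filled points are shared genes, open points the other list members, and a bar is the list's median. Type I interferon genes lie mostly above 0 in both B2mKO groups (medians 0.46 and 0.90) and mostly below 0 in both Jak1KO groups (medians -1.58 and -1.45).

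Immune cell lists held both rises and falls. Of 24 genes of cytotoxic effectors and NK cells, 3 rose (7.83% over all genes tested). They were the activating NK receptor Ncr1 (1.39 ± 0.30), the chemokine Xcl1 (1.04 ± 0.33) and the cathepsin Ctsw (0.87 ± 0.22). Ncr1 and Xcl1 rose from low WT medians of 0.668 and 0.443 CPM. In B2mKO tumours 14 of the 24 were higher and 1 lower than in WT (14.0% and 15.6% of genes tested). In Jak1KO tumours 2 were higher and 3 lower (14.8% and 17.6% of genes tested). That list summed to 196 to 1911 CPM in B2mKO libraries and 60.9 to 283 CPM in Jak1KO libraries, against 57.2 to 406 CPM in WT libraries. Of 24 T cell genes, the coreceptor Cd4 rose 0.92 ± 0.22 and the interleukin 7 receptor Il7r fell by 1.76 ± 0.23. Both counts, 1 rise and 1 fall, were below the shares over all genes tested (7.83% and 9.13%). The T cell rises numbered 2 without WT aPD1 replicate 2 or 3 or Jak1KO aPD1 replicate 2, 3 or 4. The B cell genes Cd22 and Cd79b rose 1.49 ± 0.18 and 1.05 ± 0.26, from WT medians of 1.07 and 1.09 CPM. Of 12 dendritic cell genes 3 fell, Itgax, the integrin CD11c (by 1.66 ± 0.17), Clec9a, a receptor of cross-presenting cells (by 1.29 ± 0.24), and the chemokine receptor Xcr1 (by 1.32). The Clec9a difference was -2.12 under aPD1 and -0.45 under IgG1 (edgeR, adjusted p = 1.74e-05 and 0.389). Clec9a averaged 7.00 ± 3.35 CPM in WT aPD1 and 1.54 ± 0.574 CPM in WT IgG1 tumours (SD, n = 5 each). The transcription factor Zbtb46 and the integrin Itgae of that list rose 0.42 ± 0.06 and 0.44.

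Of 26 macrophage and monocyte genes, 3 rose, the mannose receptor Mrc1 (1.17 ± 0.20), the haemoglobin scavenger receptor Cd163 (0.90) and the phagocytic receptor Mertk (0.37 ± 0.08). Cd14, the lipopolysaccharide co-receptor, and the Fc receptor Fcgr3 fell by 0.55 ± 0.17 and 0.51. The 3 rises and 2 falls of that list were near the shares over all genes tested (7.83% and 9.13%). The falls numbered 1 without WT aPD1 replicate 2 or WT IgG1 replicate 3 and 4 without WT IgG1 replicate 1. The macrophage list summed to 3866 to 9541 CPM in B2mKO libraries and 3716 to 6376 CPM in Jak1KO libraries, against 2097 to 8640 CPM in WT libraries. The T cell costimulatory ligands Cd86 and Cd80 fell by 1.00 ± 0.20 and 0.62 ± 0.14 over both antibodies. The Cd86 difference was -1.52 under aPD1 and -0.48 under IgG1, and the Cd80 difference -0.93 under aPD1 and -0.31 under IgG1. Both passed under aPD1 (edgeR, adjusted p = 0.000214 and 0.00113) and neither did under IgG1 (edgeR, adjusted p = 0.258 and 0.308), and the difference between antibodies did not pass for either (edgeR, adjusted p = 0.255 and 0.314). Their list held 1 shared fall without WT IgG1 replicate 3, against 2 with it. Raet1d, a ligand of the NK receptor NKG2D with near-identical copies, and Cadm1, a ligand of the NK receptor CRTAM, fell by 0.56 ± 0.10 and 1.31 ± 0.26. The part of the cell type sums in these values was not tested.

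Among extracellular proteases, the subject of the series, the metalloproteinase list held more falls than rises. Of 21 metalloproteinases and inhibitors, 6 fell and 1 rose. The rise was lost without WT IgG1 replicate 3, WT IgG1 replicate 5 or Jak1KO IgG1 replicate 2, and the rises numbered 3 without WT IgG1 replicate 1 and 2 without B2mKO IgG1 replicate 3 or Jak1KO IgG1 replicate 5. Mmp13, a collagenase, was at 3.88, 6.70 and 26.0 CPM in B2mKO tumours and at 2.03, 5.44 and 10.5 CPM in Jak1KO tumours, against 7.27, 15.9 and 46.4 CPM in WT tumours. It fell by 1.45 ± 0.29 (edgeR, adjusted p = 0.000477), the neutrophil collagenase Mmp8 by 1.68 ± 0.37 and the inhibitor Timp3 by 1.10 ± 0.19. Mmp9, a gelatinase, rose 0.62 ± 0.12, with differences of 1.17 and 1.08 in B2mKO and 0.18 and 0.04 in Jak1KO tumours (aPD1, IgG1). Of 24 ADAM and ADAMTS proteases, 4 fell and 1 rose, and 2 rose without WT aPD1 replicate 4, WT IgG1 replicate 4, WT IgG1 replicate 5, B2mKO IgG1 replicate 3 or Jak1KO IgG1 replicate 1. Adam8, a protease of leukocytes, fell by 0.86 ± 0.12, the widely expressed sheddase Adam9 by 0.28 ± 0.05 and Adamts9 by 0.68. Adamts16 fell by 2.15, and Adamts10 rose 0.48 ± 0.09. Adamts8, described above, was not on that list.

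Of 19 cathepsin genes 3 fell, Ctsl (by 0.40 ± 0.09), Ctsc (by 0.63 ± 0.15) and Ctsh (by 0.64), all lysosomal proteases, and 2 rose, Ctsw and the neutrophil and mast cell protease Ctsg (2.37). Without Jak1KO aPD1 replicate 1, Jak1KO aPD1 replicate 5 or Jak1KO IgG1 replicate 1, 1 cathepsin gene rose. Of 34 serine proteases and serpins 3 rose and 4 fell, near the shares over all genes tested (7.83% and 9.13%). F2r, the thrombin receptor, was at 16.2 to 26.3 CPM in knockout libraries, against 7.61 to 13.9 CPM in WT libraries, and rose 0.75 ± 0.08 without overlap, the serine protease Prss23 rose 0.54 ± 0.09 and the serpin Serpinf1 0.35. The 4 that fell were the protease inhibitor Spint1 (by 1.33 ± 0.21), the complement inhibitor Serping1 (by 1.19 ± 0.28), the receptor F2rl1 (by 1.91) and the urokinase receptor Plaur (by 0.35). Of 18 complement genes 2 rose and 1 fell, near the shares over all genes tested. Those that rose were Masp1, a protease of the lectin pathway (1.29 ± 0.23), and Hc, which encodes C5 (0.82 ± 0.13). In B2mKO tumours 6 of the 18 were higher and 1 lower than in WT (14.0% and 15.6% of genes tested). In Jak1KO tumours 1 was higher and 6 lower (14.8% and 17.6% of genes tested). Dpep1, a dipeptidase of the cell surface, was at 2.51 to 4.45 CPM in knockout libraries, against 0.568 to 1.94 CPM in WT libraries, and rose 1.59 ± 0.13 without overlap.

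Lists of sterol synthesis and stress responses held falls, and 0 of their genes lay above WT in all 4 groups. Of 19 cholesterol synthesis genes, 9 were shared and lower, with a list median of -0.34. Msmo1, a sterol oxidase, was at 25.4, 35.6 and 57.5 CPM in B2mKO tumours and at 28.2, 44 and 55.9 CPM in Jak1KO tumours, against 54.0, 67.0 and 133 CPM in WT tumours. It fell by 0.83 ± 0.12 (edgeR, adjusted p = 8.16e-06). Insig1, which holds back the sterol-sensing transcription factor SREBP, fell by 0.64 ± 0.14 and squalene epoxidase, Sqle, by 0.49 ± 0.10. The other 6 were lower by 0.30 to 0.55. Of 24 genes of the unfolded protein and integrated stress responses, 6 fell. Vldlr, a lipoprotein receptor, was at 10.0, 29.2 and 42.7 CPM in B2mKO tumours and at 45.0, 53.2 and 87.9 CPM in Jak1KO tumours, against 93.0, 109 and 145 CPM in WT tumours. The 3 ranges did not overlap, and Vldlr fell by 1.43 ± 0.14, the glutathione-degrading enzyme Chac1 by 0.94 ± 0.12 and the transcription factor Atf4 by 0.50 ± 0.08. Of 25 hypoxia-induced genes 6 fell, among them the oxygen sensor Egln1 (by 0.47 ± 0.09), Ndrg1 (by 0.59 ± 0.14) and the oxidase of the endoplasmic reticulum Ero1l (by 0.73 ± 0.19). Without B2mKO aPD1 replicate 2, 10 hypoxia-induced genes fell. Of 18 NRF2 targets 3 fell, the quinone reductase Nqo1 (by 0.88 ± 0.22), the cystine transporter Slc7a11 (by 0.79 ± 0.14) and G6pdx of the pentose phosphate pathway (by 0.52 ± 0.06).

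Several lists held a few falls each. Of 22 p53 targets 3 fell, the cell cycle inhibitor Cdkn1a (by 0.68 ± 0.11), the p53 ligase Mdm2 (by 0.49 ± 0.07) and the death receptor Tnfrsf10b (by 0.51 ± 0.05). The Tnfrsf10b difference was -0.12 in B2mKO and -0.91 in Jak1KO tumours (edgeR, adjusted p = 0.147 and 4.19e-12). Of 22 mitotic genes 3 fell, Top2a (by 0.44 ± 0.06), Bub1 (by 0.38 ± 0.06) and Ccna2 (by 0.18 ± 0.07). The list as a whole moved in opposite directions in the knockouts. In B2mKO tumours 13 of the 22 were lower and 0 higher than in WT (15.6% and 14.0% of genes tested), with a median of -0.255. In Jak1KO tumours 2 were lower and 8 higher (17.6% and 14.8% of genes tested), with a median of 0.181. Ccna2 missed the threshold in 17 of 37 alternative settings, with an adjusted p of up to 0.112 (edgeR). Of 20 DNA replication genes Cdc6, Ccne1 and Rrm2 fell by 0.42 ± 0.08, 0.39 ± 0.09 and 0.34 ± 0.10. The count of shared replication falls was 6 without WT IgG1 replicate 3 and 5 without Jak1KO aPD1 replicate 5. In B2mKO tumours 17 of the 20 were lower and 0 higher than in WT, and in Jak1KO tumours 1 was lower and 2 higher. The list median was -0.424 in B2mKO and 0.066 in Jak1KO tumours. Of 17 inflammatory genes of the NF-kB list 4 fell, Ptgs2 and Ptges, successive enzymes of prostaglandin E2 synthesis (by 0.83 ± 0.19 and 0.51 ± 0.08), the cytokine Tnf (by 0.61) and the NF-kB inhibitor Nfkbia (by 0.32 ± 0.08). Of 12 imprinted growth genes 3 fell. Peg10, an imprinted gene derived from a retrotransposon, was at 7.01, 16.9 and 24.7 CPM in B2mKO tumours and at 19.0, 22.3 and 26.3 CPM in Jak1KO tumours, against 44.4, 79.4 and 169.9 CPM in WT tumours. It fell by 2.24 ± 0.15 without overlap of knockout and WT libraries, and Plagl1 and the cell cycle inhibitor Cdkn1c fell by 0.99 ± 0.22 and 1.23 ± 0.24.

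Of 28 Hox genes 5 fell, 4 of them from the Hoxd cluster on chromosome 2: Hoxd10 (by 1.00 ± 0.12), Hoxd9 (by 0.56 ± 0.09), Hoxd13 (by 0.40 ± 0.06) and Hoxd8 (by 0.31), besides Hoxa9 (by 0.22). Hoxc5 rose 0.46, and the Hox rises numbered 0 to 4 with 1 library left out, 0 without B2mKO aPD1 replicate 4 and 4 without B2mKO aPD1 replicate 2. Of 22 growth factor genes 4 fell and 3 rose. Kitl, the ligand of the receptor KIT, was at 75.7 to 131 CPM in knockout libraries, against 145 to 204 CPM in WT libraries. It fell by 0.71 ± 0.06 without overlap, Fgfr3 by 0.83 ± 0.09 and Nrg1 by 0.88, while Fgf7 rose 0.83 ± 0.07, Fgfr2 1.49 and Igf1 0.98. Without B2mKO aPD1 replicate 2, 5 growth factor genes rose. Of 19 Wnt pathway genes 3 rose and 3 fell (7.83% and 9.13% over all genes tested). Those that rose were the receptors Lgr6 (1.32 ± 0.28) and Fzd2 (0.36) and Ctnnb1, beta-catenin (0.17 ± 0.04). Lgr6 was low, at 0.132 to 2.41 CPM in knockout libraries, against 0.167 to 0.589 CPM in WT libraries. Those that fell were Wnt7b, Wnt10a and Dkk3 (by 0.50 ± 0.08, 0.72 and 0.80). The falls of that list numbered 1 without WT IgG1 replicate 1. Cdh11, a mesenchymal cadherin, was at 1.03, 1.97 and 11.2 CPM in B2mKO tumours and at 0.990, 1.61 and 3.94 CPM in Jak1KO tumours, against 9.28, 12.8 and 16.4 CPM in WT tumours, and fell by 2.35 ± 0.29 (edgeR, adjusted p = 6.14e-07). Tubb3, a tubulin known from neurons, was at 10.4, 14.6 and 18.5 CPM in B2mKO tumours and at 34.1, 44.2 and 63.7 CPM in Jak1KO tumours, against 39.4, 69.6 and 87.6 CPM in WT tumours. It fell by 1.39 ± 0.11, and the B2mKO range lay below the others.

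The shared genes that fell were unevenly spread over chromosomes. Of 813 genes tested on chromosome 8, 203 (25.0%) were shared and lower, against 9.13% over all genes tested, and 12 (1.48%) were shared and higher, against 7.83%. The difference was below 0 for 77.0% of chromosome 8 genes, with a median of -0.15. The median was -0.16 in B2mKO aPD1, -0.20 in B2mKO IgG1, -0.09 in Jak1KO aPD1 and -0.11 in Jak1KO IgG1 tumours. For each library the median log2 CPM of chromosome 8 genes was taken relative to all genes, with the WT mean at 0. It was -0.237, -0.194 and -0.119 (lowest, median and highest of 10 libraries) in B2mKO tumours and -0.149, -0.106 and -0.032 in Jak1KO tumours, against -0.066, -0.007 and 0.088 in WT tumours. The B2mKO libraries lay below all WT libraries, and the Jak1KO and WT ranges overlapped. Other chromosomes also shifted, in opposite directions in the knockouts. In Jak1KO tumours the chromosome 3 median was -0.162 under aPD1 and -0.199 under IgG1, lower than that of chromosome 8. In B2mKO tumours it was 0.075 and 0.065. The chromosome 6 medians were -0.113 and -0.133 in Jak1KO and 0.149 and 0.122 in B2mKO tumours.

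On chromosome 15, 17.5% of 617 genes were shared and lower. Its library medians were -0.281, -0.22 and -0.13 in B2mKO tumours and -0.123, -0.062 and 0.026 in Jak1KO tumours, against -0.036, -0.016 and 0.084 in WT tumours, so the B2mKO libraries alone stood apart from WT. Among the named genes that fell, Adam9, Angpt2, Cdh11, Egln1, Msmo1, Nod2, Nqo1 and Tubb3 lie on chromosome 8, as does Dpep1, which rose.

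**Figure D5:**
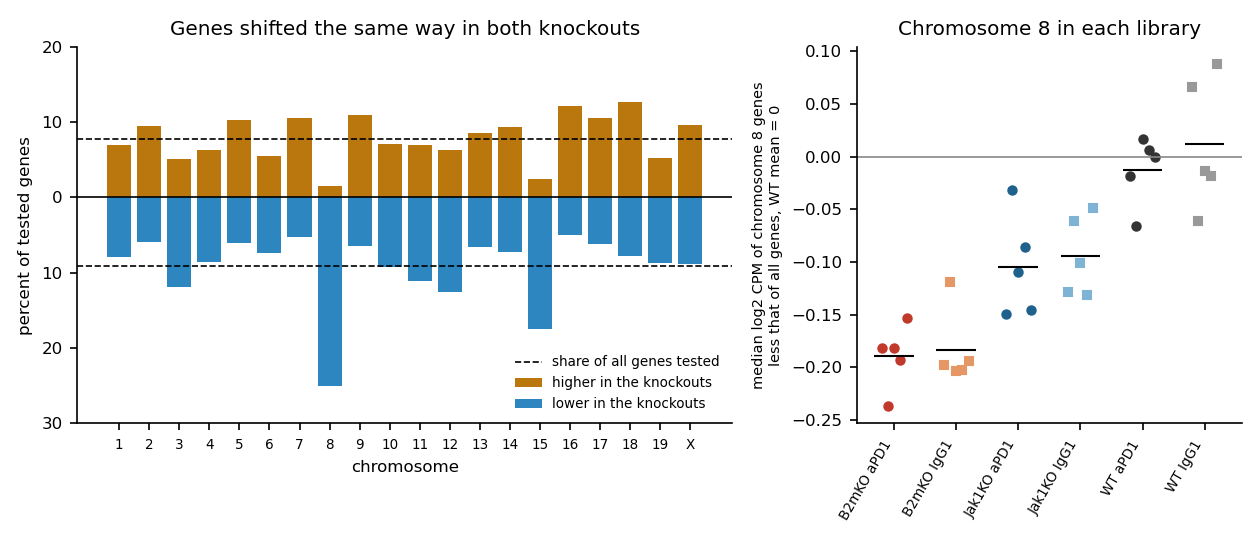
Left, the percent of tested genes on each chromosome that were shared and higher (up, brown) or shared and lower (down, blue) in the knockouts, with dashed lines at 7.83% and 9.13% over all genes tested. Right, the median log2 CPM of chromosome 8 genes less that of all genes in each library, with the WT mean at 0 and a bar at each group's mean; the percent lower is greatest on chromosome 8, at 25.0%, and all 10 B2mKO libraries lie below the WT libraries.

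Whether the shift from WT depended on the antibody was tested as the shift under aPD1 minus the shift under IgG1. Over all genes 24 passed (0.155%), 22 of them (0.142%) more negative and 2 (0.0129%) more positive under aPD1. Of the 2630 shared genes, 1 passed: Nod2, a sensor of bacterial peptidoglycan. The sign condition uses the same group means and leaves out genes whose shift changes sign between antibodies. Counts among the shared genes are therefore shaped by the choice and cannot be set against those over all genes. Nod2 averaged 3.09 ± 0.706 CPM in B2mKO aPD1 and 4.29 ± 0.829 CPM in Jak1KO aPD1 tumours, against 10.7 ± 3.37 CPM in WT aPD1 tumours (SD, n = 5 each). Under IgG1 it averaged 3.95 ± 0.717 CPM in B2mKO and 3.83 ± 0.771 CPM in Jak1KO tumours, against 4.02 ± 1.49 CPM in WT tumours. The shift was -1.55 under aPD1 and -0.05 under IgG1, a difference of -1.50 ± 0.29 (edgeR, adjusted p = 0.0249). Among the named genes that missed the threshold, the leukocyte integrin chain Itgb2 averaged 121 ± 13.1 CPM in B2mKO aPD1 and 121 ± 55.4 CPM in Jak1KO aPD1 tumours, against 313 ± 103 CPM in WT aPD1 tumours. Its difference between antibodies was -1.28 ± 0.29 (edgeR, adjusted p = 0.0517). At an unadjusted p under 0.05 the difference held for 285 of the shared genes and 2373 of all genes. The count of 24 rested on single libraries. It was 0 without WT aPD1 replicate 2, WT aPD1 replicate 5, WT IgG1 replicate 1 or WT IgG1 replicate 5, 5 without WT aPD1 replicate 1 and 10 without WT IgG1 replicate 3. It was 12 to 15 without WT aPD1 replicate 3, WT IgG1 replicate 2, Jak1KO aPD1 replicate 2, 3 or 4, Jak1KO IgG1 replicate 1 or 5, B2mKO IgG1 replicate 2 or B2mKO aPD1 replicate 5. It was 38 without B2mKO aPD1 replicate 4, 146 without Jak1KO aPD1 replicate 1, 212 without WT IgG1 replicate 4 and 311 without WT aPD1 replicate 4, and DESeq2 gave 252.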

How the data were processed

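RNA-seq read counts of 30 tumour libraries were used, with 55471 genes each. Per the file headers, the authors counted reads per gene with featureCounts 2.0.0 on Ensembl GRCm38 release 99, without strand, with mates counted separately and without reads that match several places, so overlapping, antisense and near-identical genes are uncertain. The submitters' processing notes name STAR 2.5.2a. The header of 1 library, WT aPD1 replicate 2, names another alignment than its sample. The 327 gene IDs without a symbol held 0.047% of counts.

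CPM and differences were computed from the deposited counts with edgeR 4.0.16 (R 4.3.3), TMM scaling, a minimum count of 10, 6 group means and the quasi-likelihood F-test. The threshold was a Benjamini-Hochberg adjusted p of 0.05 over 15505 genes, and SE is the log2 difference over the root of F. The procedure was tested on simulated data. Members and the 49 gene lists were chosen with earlier results of these data known. Of 978 list genes, 3 had no match and 859 were tested.

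Named genes are B2m and Jak1 and up to 12 largest shared rises and falls. These rises and falls had at least 5 CPM and at least 18 of 20 knockout libraries on one side. Up to 3 shared genes of each list and up to 6 rises and falls with the smallest p among genes without overlap were added. Up to 6 shared genes each with the smallest p between knockouts and between antibodies were also named. The rest are the gene that passed outside the sign condition with the smallest p and the shared gene nearest to that condition. Predicted genes were skipped, and some list members are not reported here. Alternatives were DESeq2 size factors, no filter on low counts, DESeq2 1.42.0, limma 3.58.1 voom, an additive model, a replicate block, each library left out, the 2 libraries that stood apart left out, a stricter threshold, each antibody alone and a stricter sign condition. Replicates of a group differed by more than sampling noise, so all libraries were counted.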

Additional observations from a re-analysis of the deposited data

Results flagged for a closer look

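Levels of 29 named genes and 1 summary measure were searched for a library far from the other 4 of its group, 180 groups in all, of which chance gives about 5%. There were 13 such values. Jak1KO IgG1 replicate 2 was the highest of its group for Trp63 (13.8 CPM), Lama2 (30.8 CPM), Lum (118 CPM) and Igsf10 (10.8 CPM). Jak1KO aPD1 replicate 1 was the highest for the interferon-induced genes Apol6 (1.33 CPM) and Gbp2b (35.6 CPM). WT IgG1 replicate 3, which stood apart in its mean correlation, was the highest for Sntb1 (53.5 CPM) and the lowest for Jak1 (182 CPM). B2mKO aPD1 replicate 2, which also stood apart, was the highest for Afp (31.6 CPM). Eln was highest in WT IgG1 replicate 2 (33.2 CPM) and Lama2 in B2mKO IgG1 replicate 5 (2.31 CPM). The Strc values of 0.0495 CPM in Jak1KO aPD1 replicate 2 and 0.0418 CPM in Jak1KO IgG1 replicate 5 are single counts.

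The level of 1061 shared genes differed between B2mKO and Jak1KO tumours. The differences (B2mKO minus Jak1KO, log2, edgeR) were 7.82 for Strc, 5.12 for Tex13b, 2.47 for H2-Q6, 0.82 for St3gal3, -1.28 for Fgf7 and -2.08 for Eid2. The shift of Nod2 differed between antibodies by -1.50 (aPD1 minus IgG1).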

How the results depend on the processing

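The all-knockout difference of the 147 named genes changed sign in none of 37 settings. Of the 147, 140 kept an adjusted p under 0.05 in all 37 settings. The exceptions were Erg, Ncam1, Ccna2, Psmc6, Cpe, Alas2 and Krt7. The 24 genes whose shift depended on the antibody became 57 with DESeq2 size factors, 37 without the filter, 252 with DESeq2, 15 with the replicate block and 41 without the 2 libraries that stood apart, and 0 to 311 with 1 library left out. The 3845 genes that differed over all knockouts became 2401 at an adjusted p of 0.01, 2349 under aPD1 alone and 1815 under IgG1 alone, and were 3277 to 5176 with 1 library left out (5176 without B2mKO aPD1 replicate 2). The 2630 shared genes became 2240 to 3573 with 1 library left out, 2521 with the replicate block and 3282 with the additive model. They became 2370 when each knockout group had to lie beyond both WT groups. Under that stricter condition the shared falls were 4 in MHC class I (7 before), 1 in dendritic cell (3) and 0 in macrophage (2) genes. They were 0 in checkpoint (2), 1 in cathepsin (3) and 1 in chemokine (3) genes. Libraries with the same replicate number were not paired: 25 of 75 pairs of deviations correlated over 0.1 (median -0.004), and 5 of 30 libraries correlated best with their own number. With the block, 4441 genes differed in B2mKO, 4895 in Jak1KO and 6532 between knockouts. With the additive model, whose sign condition uses fitted genotype effects, 34 interferon gamma genes were lower (8 before), 11 MHC class I (7), 10 MHC class II (6) and 6 checkpoint genes (2). The cause was not tested. Genes with at most 3 counts in a group are limited by depth.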
